A study of Mus musculus with 4 samples.

Results

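B lineage transcription factors are nuclear proteins that switch on and maintain the gene programme of antibody-producing lymphocytes. In B cell development Tcf3 and Ebf1 act first and bring in Pax5, which holds cells in the lineage by activating B cell genes and repressing those of other lineages. Later factors act in mature cells, where Bcl6 and Bach2 oppose plasma cell formation and Irf4 promotes it. The spleen of a newborn mouse still forms blood cells while its B cells accumulate.

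The genes described here are Pax5, Ebf1, Pou2af1, Spib, Bcl6, Irf4, Irf8, Bach2, Ikzf3 and Tcf3. They were taken by name from the 20284 genes that the array's RefSeq accessions identified, and all 10 had at least 1 probe.

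Spleen RNA came from ICR mice, which are outbred, at 5 days of age. Their dams had received carbon black nanoparticles (CB-NP, fine particles of nearly pure carbon) at 95 microg/kg each time, or distilled water at 1 mL/kg. Both were given into the nose 2 times, on gestational days 5 and 9. RNA was pooled within each group, so each combination of sex (male or female) and exposure (control or CB-NP) is 1 pool on 1 single-colour array; how many animals or litters a pool held is not given in the sources used here. No group was repeated, and the scanner error quoted below covers the reading of spots only.

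All 4 arrays lay on 1 slide. The scanner software flagged 57.29% to 59.01% of 59305 non-control spots as well above background, and none as saturated. The spleen patterning genes Tlx1 and Nkx2-5 and the red pulp macrophage gene Spic were well above background on all 4 arrays, as were the B cell genes Ms4a1, Cd79a, Cd79b and Cd22. Pancreatic acinar genes were also present in both control pools, with a summed level over 23 genes of 30.3 and 24.2 times the array's 75th percentile in males and females. In both CB-NP pools the sum was 2.55, with Prss1 and Amy2a5 not well above background. Eosinophil granule genes were at least 1.5-fold lower with CB-NP in 6 of 6 cases in both pairs, with medians of -2.47 in males and -2.23 in females on the log2 scale. A limma fit over both sexes, described below, called 7 of 20 acinar genes lower at an adjusted p under 0.05, and 0 genes of any other list. That fit needed only 2 arrays well above background. Of the called genes, Prss1, Try4, Try5, Amy2a5, Pnliprp1 and Spink1 were well above background in the control pools alone. With only genes well above background on all 4 arrays, limma called 0 genes lower. The part of either cell population in the results below was not tested.

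The region before the start of transcription was read for the members from RefSeq (build GRCm38.p6), which held 12 windows of 300 bases for 9 of the 10 genes. Upstream parts of 4 of these windows are shown because those of Spib and Pou2af1 share the core of the octamer motif and those of Irf8 and Bcl6 hold matches to the Bcl6 core. They lie at chr7:44532072-44532321 on the minus strand (Spib), chr9:51213440-51213689 on the plus strand (Pou2af1), chr8:120736108-120736357 on the plus strand (Irf8) and chr16:23988853-23989102 on the minus strand (Bcl6). Each is written 5′ to 3′ along the gene and ends just before the start, with the motif matches named below in capitals. The Ebf1 core match of this Irf8 window lies after the start, in the part not shown.
Spib: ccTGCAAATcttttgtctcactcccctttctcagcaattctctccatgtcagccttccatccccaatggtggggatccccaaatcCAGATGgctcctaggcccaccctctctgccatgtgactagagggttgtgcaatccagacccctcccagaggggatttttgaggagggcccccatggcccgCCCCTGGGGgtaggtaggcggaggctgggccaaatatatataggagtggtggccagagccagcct
Pou2af1: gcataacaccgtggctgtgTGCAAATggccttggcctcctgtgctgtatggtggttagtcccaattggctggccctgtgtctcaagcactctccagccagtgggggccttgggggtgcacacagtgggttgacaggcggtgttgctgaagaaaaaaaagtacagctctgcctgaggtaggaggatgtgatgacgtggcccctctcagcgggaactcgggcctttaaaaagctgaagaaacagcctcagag
Irf8: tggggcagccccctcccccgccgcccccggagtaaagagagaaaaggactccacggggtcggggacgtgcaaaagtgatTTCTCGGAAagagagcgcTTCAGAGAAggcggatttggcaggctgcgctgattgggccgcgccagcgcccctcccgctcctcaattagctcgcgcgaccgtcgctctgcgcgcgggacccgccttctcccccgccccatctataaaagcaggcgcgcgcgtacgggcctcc
Bcl6: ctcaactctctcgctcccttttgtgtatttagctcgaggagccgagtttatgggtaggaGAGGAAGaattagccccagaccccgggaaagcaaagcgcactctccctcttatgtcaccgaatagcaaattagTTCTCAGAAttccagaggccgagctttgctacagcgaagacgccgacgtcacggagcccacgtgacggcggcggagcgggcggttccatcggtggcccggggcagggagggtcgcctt

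Motifs were searched on both strands of all 32851 windows. The full octamer ATGCAAAT, the site of POU2F proteins to which Pou2af1 binds as a coactivator, was in 0 of the 12 member windows and in 1.74% of all windows. Its 7-letter core TGCAAAT, searched after the sequences had been seen and contained in the octamer, lay 231 bases before the start of Pou2af1 and 248 before that of Spib, beside 4.02% of all windows. The E box CAGNTG of the Tcf3 family was in 2 member windows (Spib, and a second start of Irf8), against 51.42% of all windows. The Ebf1 core CCCNNGGG was in 2 (Spib and Irf8; 13.67% of all), the ETS letters GAGGAAG of Spib in 1 (Bcl6; 13.63%) and the AP-1 and Bach2 letters TGAGTCA in 0 (5.20%). The ETS-IRF composite GGAANNGAA was in 2 windows (Bach2 and a second start of Bcl6; 8.24%) and the IRF pair GAAANNGAA in 1 (Ebf1; 8.56%). The Bcl6 and STAT core TTCNNNGAA, which can share bases with the ETS-IRF composite, was in 4 windows (Bach2, Irf8 and both of Bcl6; 8.30%). These are letter matches in short windows and say nothing about binding.

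Across the 10 genes, 8 were higher in both CB-NP pools than in either control pool, and Ikzf3 and Tcf3 differed by under 0.1 in both pairs. Levels are log2 of the processed signal minus the array's 75th percentile, and a difference is CB-NP minus control of 1 sex. The median difference over the members was 0.44 in males and 0.44 in females, where all genes had medians of -0.02 and -0.04. Members above 0 in both pairs numbered 9 of 10, the exception being Ikzf3, beside 27.8% of 13936 genes. With both CB-NP pools above both control pools there were 8 of 10, beside 21.8% of the same genes. Under the scaling alternatives these 8 stayed above 0 in both pairs, while Ikzf3 and Tcf3 changed sign in 1 or both pairs. In bulk RNA, a larger share of B cells and more RNA per cell cannot be told apart.

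**Figure D1:**
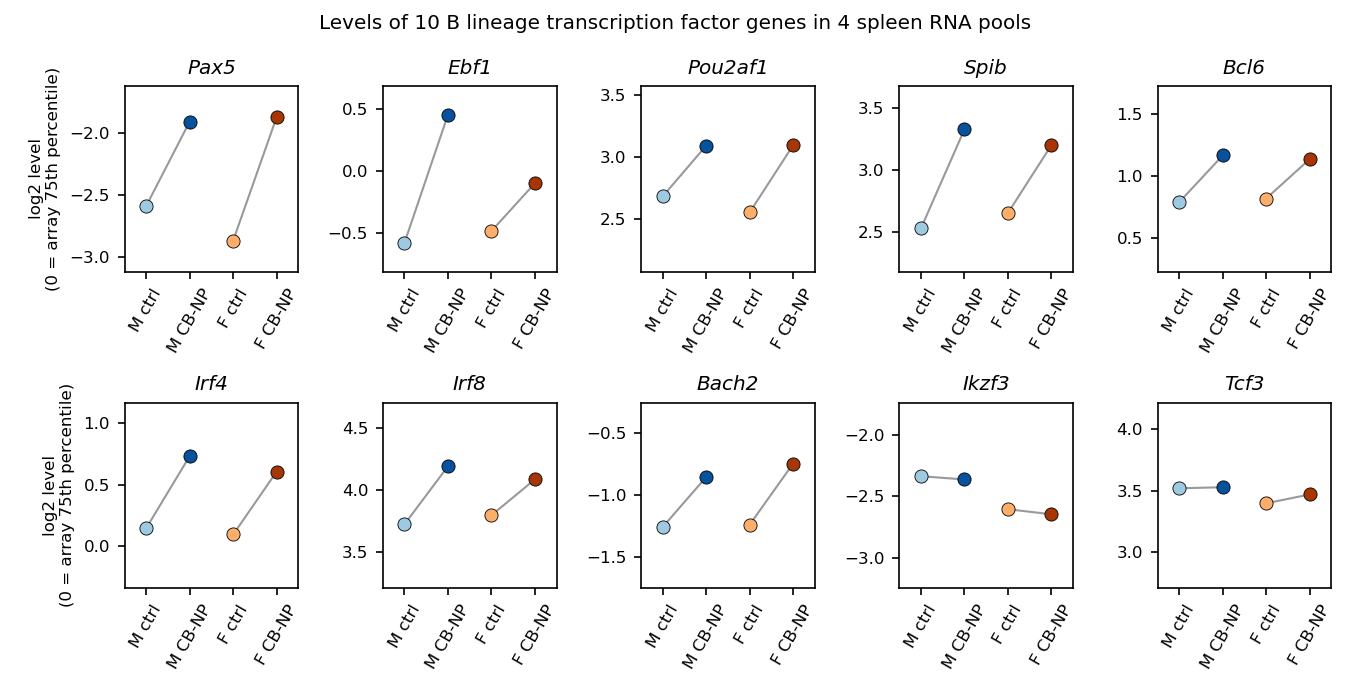
Levels of the 10 genes in the 4 pools (y axis: log2 processed signal minus the array's 75th percentile, each panel spanning 1.5 units; x axis: male and female, control and CB-NP; 1 array per point, no error bars, grey lines join a pair). The CB-NP points of 8 genes lie above both control points, and those of Ikzf3 and Tcf3 do not.

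Past 1.5-fold, 3 members were higher in the male pair (Pax5, Ebf1 and Spib) and 0 lower, beside 2.57% of 14188 genes higher and 2.0% lower. In the female pair 1 was higher (Pax5) and 0 lower, beside 4.38% of 14076 genes higher and 2.51% lower. Pax5 alone was at least 1.5-fold higher in both pairs, beside 0.861% of all genes. Past 2-fold lay Ebf1 in males and no member in females, beside 0.352% and 0.661% of genes. The female count depends on scaling. It was 3 with quantile normalization, cyclic loess or the 75th percentile of spots detected on all arrays, where 3.66%, 3.84% and 5.81% of all genes were that much higher. It was 5 in the authors' value table, beside 6.49% of all genes.

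Among the factors that start the lineage, Tcf3, the E protein from which the E12 and E47 forms are made, was level across the pools. Its levels were 3.52 (control) and 3.53 (CB-NP) in males and 3.40 and 3.47 in females; pairs of levels are given in this order throughout. The differences of 0.01 and 0.07 were smaller than the scanner error of 0.20, and the 4 values overlapped between treatments. A second Tcf3 probe, designed on another transcript, gave 0.01 in males and -0.18 in females.

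Ebf1, the pioneer factor that opens B cell genes for transcription, had the largest male difference of the 10. Its levels were -0.58 and 0.45 in the male control and CB-NP pools and -0.49 and -0.10 in the female ones. The male difference was 1.04 (2.05-fold) and the female difference 0.39 (1.31-fold), each with a scanner error of 0.20 to 0.21. Both CB-NP pools were above both controls, and the female difference was 0.65 smaller than the male one. That gap between the sexes was not tested, since 1 array a group leaves no spread for it.

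Pax5, the commitment factor, had the largest female difference of the 10. Its levels were -2.59 and -1.90 in the male control and CB-NP pools, and -2.87 and -1.87 in the female ones. The differences were 0.68 (1.61-fold) in males and 1.00 (just under 2-fold) in females, with scanner errors of 0.21. The CB-NP pools were 0.04 apart, and the lower of them lay 0.68 above the higher control. Pax5 was a dim probe, at 55.8 and 90.9 signal units in males and 53.8 and 86.9 in females. A dimmer Pax5 probe for the same transcript, at 13.2 to 15.1 units, gave 0.11 and 0.33. With normexp background correction the main probe gave 0.40 and 0.70. That method fits a model to the signal left after local background is subtracted, and here added 50 units to each spot. A constant added to both arrays makes the log2 difference of a dim probe smaller, and its share here was not tested.

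Of the factors that act with immunoglobulin and B cell receptor genes, Pou2af1, the B cell coactivator of octamer-binding proteins, had levels of 2.68 and 3.09 in males and 2.55 and 3.10 in females. It differed by 0.41 (1.33-fold) and 0.54 (1.46-fold), with a scanner error of 0.20. The CB-NP pools were almost equal, and each was above both controls.

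Spib, an ETS factor of mature B cells and of plasmacytoid dendritic cells, had levels of 2.53 and 3.33 in males and 2.65 and 3.20 in females. The differences were 0.80 (1.74-fold) and 0.55 (1.46-fold). Siglech, a surface receptor of plasmacytoid dendritic cells named after its values were seen, differed by 0.04 and 0.20. Klk1 of the same list, a dim probe at 14.2 to 36.8 signal units, differed by -1.21 and -0.81. No other gene of that list was at least 1.5-fold lower in both pairs, and 7 genes in males and 6 in females were above 0. The whole list of 10 plasmacytoid dendritic cell markers, of which 9 were measured in each pair, had medians of 0.17 and 0.07. Its summed levels were 229 and 243 in males and 221 and 254 in females. Siglech made up most of these sums, at 63700 to 71500 signal units across the pools. The part of plasmacytoid dendritic cells in the Spib values was not tested.

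Ikzf3, the Ikaros family zinc finger protein Aiolos of later B cells, was level between treatments. Its levels were -2.34 and -2.36 in males and -2.60 and -2.64 in females, with the female control at -0.27 from the male one. The treatment differences were -0.03 and -0.04, with scanner errors of 0.22 and 0.23. It was a dim probe, at 50.7 to 66.3 signal units.

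Among the interferon regulatory factors, Irf4, which rises on activation and is needed for plasma cells, had levels of 0.15 and 0.73 in males and 0.10 and 0.60 in females. The differences were 0.58 (just under 1.5-fold) and 0.51 (1.42-fold). The control pools differed by -0.05, less than either treatment difference in size.

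Irf8, a factor of B cells, monocytes and dendritic cells, had levels of 3.72 and 4.19 in males and 3.79 and 4.09 in females. The differences were 0.47 (1.38-fold) and 0.29 (1.22-fold). The macrophage and monocyte list, with 12 genes measured, had medians of 0.11 in males and -0.04 in females, and the conventional dendritic cell list 0.20 and -0.14 over 8 measured genes. The macrophage sums were 179 and 192 in males and 179 and 173 in females. The dendritic cell sums were higher with CB-NP in both pairs, at 27.6 and 37.3 in males and 25.0 and 34.5 in females. Wdfy4 made up most of these sums, at 7280 to 10400 signal units across the pools, with Naaa next at 842 to 1190. Of the 8 measured dendritic cell genes, 5 were above 0 in males and 3 in females. The brightest genes of that list, Wdfy4 and Naaa, differed by 0.49 and 0.61 and by 0.48 and 0.06. Zbtb46 and Xcr1 of the same list were named outside the rule for list genes. Zbtb46 differed by -0.80 and -0.51, and Xcr1 was below the background flag in each pool. The part of these cells in the Irf8 values was not tested.

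Of the repressors that delay plasma cell formation, Bcl6, the master factor of germinal centres, had levels of 0.79 and 1.16 in males and 0.82 and 1.13 in females. Its differences were 0.38 and 0.32 (1.25-fold in females), and its levels did not overlap between treatments. Bach2, which represses the plasma cell factor Prdm1, had levels of -1.26 and -0.85 in males and -1.24 and -0.75 in females, and differed by 0.40 (1.32-fold) and 0.49 (1.41-fold). For both genes the control pools lay within 0.03 of each other, closer than the scanner error. A dimmer Bach2 probe was not well above background in the female control pool, and gave 0.44 in males. With the mean of both Bach2 probes the female difference was 0.84.

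The female values rest on how the arrays were scaled. The 75th percentile of the signal in females was 392 on the control array and 317 on the CB-NP array, so centring added 0.31 to every female difference. Before centring, the female control and CB-NP signals were 690 and 696 for Bcl6, 5440 and 5380 for Irf8 and 280 and 296 for Ebf1. In males the percentiles were 335 and 340, and centring moved differences by -0.02. Uncentred male signals were 578 and 762 for Bcl6, 4420 and 6210 for Irf8 and 224 and 466 for Ebf1. Pax5, at 53.8 and 86.9 units in females, and Irf4, at 419 and 482, were higher with CB-NP also before centring. So were Pou2af1 (2300 and 2710), Spib (2460 and 2910) and Bach2 (166 and 189) in females. Tcf3, at 4130 and 3510, and Ikzf3, at 64.5 and 50.7, were lower with CB-NP in females before centring.

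**Figure D2:**
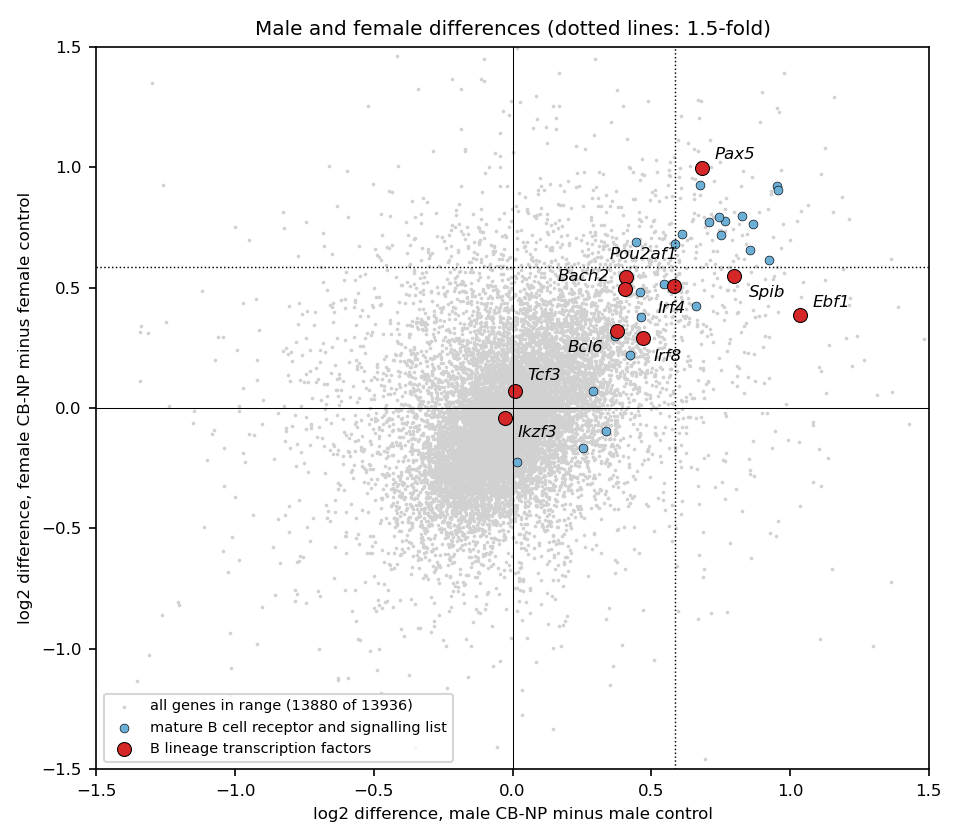
Difference between CB-NP and control in the male pair (x axis) and the female pair (y axis), both as log2; 1 point per gene, with all genes in grey, mature B cell receptor and signalling genes in blue and the 10 transcription factors in red. Ebf1 lies at 1.04 and 0.39, Pax5 at 0.68 and 1.00, and Ikzf3 and Tcf3 lie near 0.

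For most of these genes, the control pools of the 2 sexes lay closer together than CB-NP and control did within a sex. Female minus male control differences ran from -0.28 (Pax5) to 0.12 (Spib), with a median of -0.02. Of the 10, 0 passed 1.5-fold, beside 4.06% of 14165 genes, a share too small to set 10 genes apart. For 8 genes CB-NP minus control was larger in both pairs than the size of the gap between the control pools, beside 14.6% of 13936 genes. The exceptions were again Ikzf3 and Tcf3. Between the CB-NP pools the female minus male differences ran from -0.55 (Ebf1) to 0.11 (Bach2).

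A limma fit over both sexes, with treatment and sex as terms and 1 residual degree of freedom, tested the shared difference in 14503 genes. It called 0 members at an adjusted p under 0.05 (Benjamini-Hochberg), beside 0.0138% of genes called higher and 0.069% called lower. The shared differences were 0.84 (SE 0.12, adjusted p = 0.298 by limma) for Pax5, 0.71 (SE 0.20, adjusted p = 0.344) for Ebf1 and 0.67 (SE 0.11, adjusted p = 0.306) for Spib. Irf4 was at 0.55, Pou2af1 at 0.48, Bach2 at 0.45, Irf8 at 0.38 and Bcl6 at 0.35, with adjusted p from 0.306 to 0.338. At an unadjusted p under 0.05 there were 8 members, beside 13.8% of all genes. Tcf3 (0.04) and Ikzf3 (-0.03) had adjusted p of 0.831 and 0.858. The calls differed between settings, and the cause was not tested. With normexp limma called Ebf1, Irf4, Pax5, Pou2af1 and Spib, beside 4.22% of all genes. With an intensity trend in the prior it called Irf4, Irf8, Pou2af1 and Spib (2.62%), and with median centring Pax5 (2.37%). The prior degrees of freedom were 2.42 in the main fit and 7.44 with the trend. They were infinite with normexp and median centring, where every gene is given the same variance.

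Surface and signalling genes of mature B cells were described beside their regulators. In the list of 24 mature B cell receptor and signalling genes, 14 were at least 1.5-fold higher in males and 14 in females, 13 were so in both, none was 1.5-fold lower, and 21 were above 0 in both pairs. Their medians were 0.64 and 0.67, beside 0.44 and 0.44 for the transcription factors. Cxcr5, the receptor that draws B cells into follicles, differed by 0.96 and 0.91. Fcer2a, the low-affinity IgE receptor, differed by 0.95 and 0.92. Tnfrsf13c, the BAFF receptor, differed by 0.87 and 0.77, and the Fc receptor-like gene Fcrl1 by 0.83 and 0.80. By limma 0 of the 24 were called. Set against the list median of the same array pair, Pax5 differed by 0.05 in males and 0.33 in females, Spib by 0.16 and -0.12 and Irf4 by -0.05 and -0.16. Pou2af1 (-0.23 and -0.13), Bcl6 (-0.26 and -0.35), Irf8 (-0.17 and -0.38) and Bach2 (-0.23 and -0.18) were below the list median in both pairs. Ebf1 was 0.40 above the list median in males and differed from it by -0.28 in females. Tcf3 and Ikzf3 differed from it by -0.60 to -0.71.

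Partner transcription factors were mixed. Of 24 measured, 2 were at least 1.5-fold higher in males and 3 in females, and 0 and 1 lower, with medians of 0.21 and 0.11. Pou2f2, the octamer-binding protein with which Pou2af1 works in B cells, differed by 0.70 and 0.73. The ETS factor Spi1, a relative of Spib, differed by -0.12 and -0.60, and Tcf12, an E protein like Tcf3, by -0.05 and -0.13. Ikzf1, the family founder of Ikzf3, differed by 0.28 and 0.12, and Foxo1, which acts with Ebf1 in precursors, by 0.42 and 0.52. These last 4 genes were chosen as relatives of the members after their values were seen.

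Precursor genes lay on both sides of 0. Of 14 measured in males 1 was at least 1.5-fold higher and 1 lower, and of 13 in females 2 were higher and 3 lower, with medians of 0.20 and 0.05. The surrogate light chain gene Igll1, a target of Ebf1 and Tcf3 in precursors, differed by -0.48 and -0.82, and Vpreb3 by 0.84 and 0.35; both were named after their values were seen. Cd93, a surface marker of immature B cells with other cell types, differed by 0.21 and 0.34, and Myb by 0.07 and -0.09. In the plasma cell list, 8 measured genes had medians of 0.10 and -0.08. Of these, 1 was at least 1.5-fold higher in each pair, and 1 in males and 0 in females were lower. The higher gene was Mzb1, a chaperone gene of antibody-secreting and marginal zone B cells, at 0.59 and 0.64. The lower gene was Jchain, at -0.60 and -0.53. Of 8 germinal centre genes 5 were measured, with medians of 0.30 and 0.13. Genes known to be repressed by Pax5 had medians of 0.27 and -0.05 over 10 genes, with 1 past 1.5-fold in males (higher) and 0 in females. Csf1r, the growth factor receptor of macrophages, differed by 0.22 and 0.08, and Cd47 by -0.22 and -0.32.

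**Figure D3:**
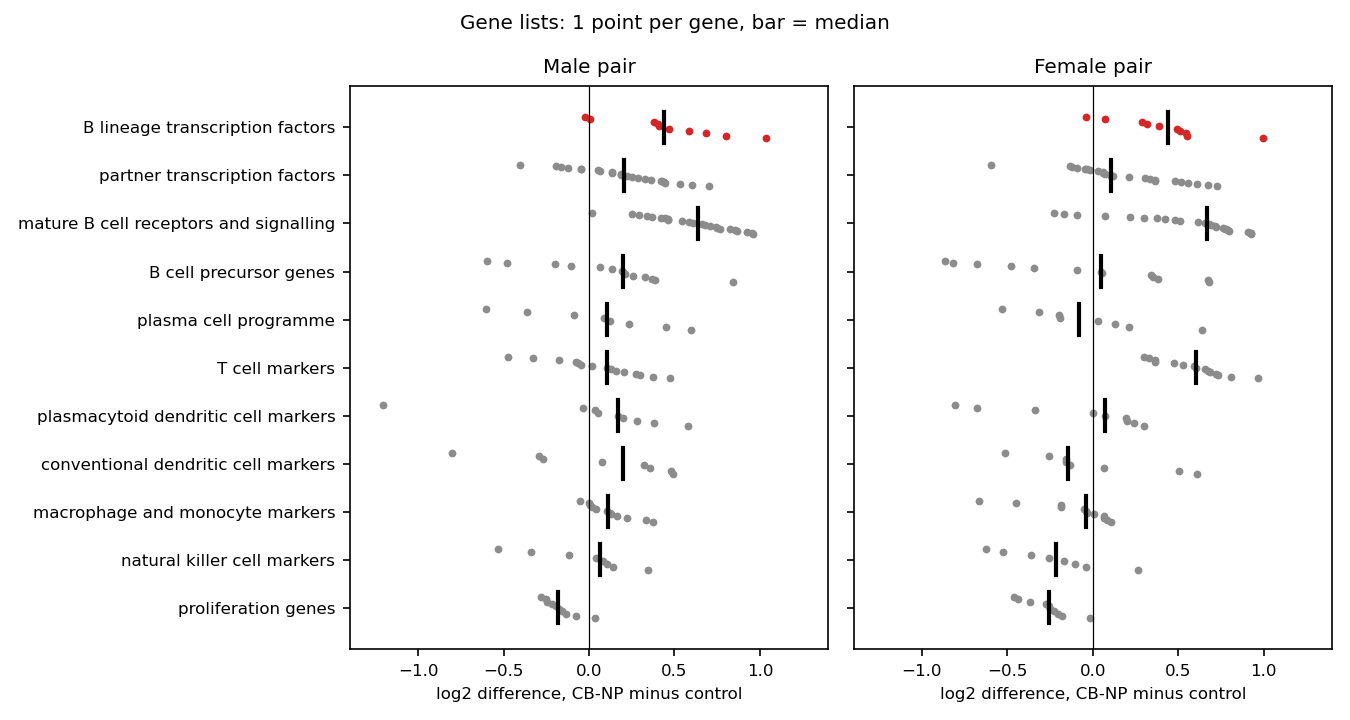
Log2 difference between CB-NP and control (x axis) for each gene of 11 lists in the male and female pairs; 1 point per gene, black bars are list medians. The medians of the transcription factors are 0.44 and 0.44 and those of the mature B cell list 0.64 and 0.67; precursor genes spread to both sides of 0.

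Other cells of the spleen that use some of these factors were described in the same way. T cell markers, which matter for Ikzf3, Bcl6 and Bach2, had medians of 0.10 in males and 0.61 in females over 15 measured genes. In females 9 of 15 were at least 1.5-fold higher, beside none in males, and summed levels were 30.2 and 30.7 times the 75th percentile in males and 30.5 and 41.5 in females. Their part in the female values was not tested. Cd3d, a T cell receptor subunit, differed by 0.10 and 0.30, and the kinase gene Lck by 0.02 and 0.36. Natural killer markers had medians of 0.06 and -0.21. Erythroid genes had medians of -0.11 and -0.13, and proliferation genes -0.18 and -0.25 with 0 past 1.5-fold in either pair.

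**Figure D4:**
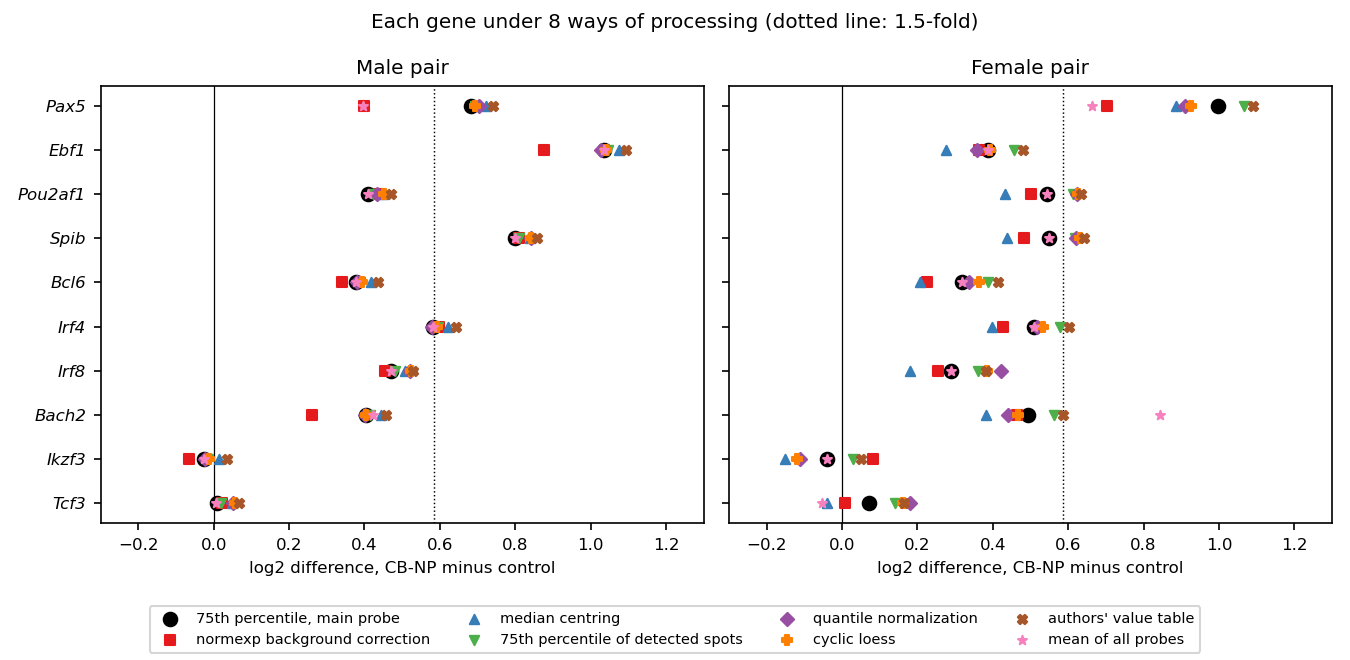
Difference between CB-NP and control for each gene (rows) under 8 ways of processing (x axis: log2 difference; male pair left, female pair right; symbols mark the processing). The first 8 genes stay above 0 in both pairs under all 8, Pax5 is lower with normexp and with the mean of its probes, Bach2 in females is higher with the mean of its probes, and Ikzf3 and Tcf3 straddle 0.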

How the data were processed

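Arrays of design 028005 (build mm9), with 1 colour, were read by Agilent Feature Extraction 10.10.1.1, per the file headers. The deposited processed signal is an intensity after background subtraction and detrending of the single array, with no scaling between arrays. The deposited flags (other values of 0 or 1) mark spots well above background or outlying. The authors' value table is an intensity proportional to the processed signal on each array, with a target that is not stated.

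Outlier spots were left out, spots of a probe averaged, and log2 values centred on each array's 75th percentile of non-control spots. Of 55681 probes, 26762 matched 20284 genes by RefSeq accession (GRCm38.p6, for names). The probe with the highest mean signal stood for its gene: 13 probes matched the 10 members, and 3 members had 2. A difference needed both arrays well above background. The scanner error combines the propagated errors of both arrays.

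With 1 array a group no test was possible within a sex. limma 3.58.1 (R 4.3.3) fitted treatment and sex over genes that at least 2 arrays showed well above background, tested on simulated data, with Benjamini-Hochberg adjustment. Alternatives tried were 7 ways of scaling, background correction or probe choice and, for limma, 5 filters, priors or designs. All members were named, and from each of 15 other lists up to 4 genes past 1.5-fold alike in both sexes or else the 2 brightest; some lists are given by counts alone, and genes named outside this rule are marked as such. The members and lists were chosen with earlier results of these data known. Python 3.11.15 with pandas 2.3.3 and matplotlib 3.10.9 made tables and plots.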

Additional observations from a re-analysis of the deposited data

Results flagged for a closer look

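In 5 lists beside the members, the male and female medians had opposite signs; these differences between the sexes were not tested. The female minus male gap was -0.18 for the plasma cell programme, -0.32 for genes repressed by Pax5, -0.34 for conventional dendritic cell markers, -0.15 for macrophage and monocyte markers and -0.27 for natural killer cell markers. None of the 10 transcription factors had opposite signs in the pairs.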

How the results depend on the processing

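The direction of Pax5, Ebf1, Pou2af1, Spib, Bcl6, Irf4, Irf8 and Bach2 was the same in both pairs under all 7 alternatives of scaling, background or probe. The count of members at least 1.5-fold different in males, 3, ran from 2 to 4 and was 1 at 2-fold. Across these settings 0.80% (normexp) to 3.37% (authors' value table) of all genes were 1.5-fold higher in males, and 0.352% were 2-fold higher. The female count of 1 became 3 with the 75th percentile of spots well above background on all arrays (5.81% of all genes higher). It was 3 with quantile normalization (3.66%), 3 with cyclic loess (3.84%) and 5 with the authors' value table (6.49%). With the mean of all probes it was 2 (4.43%), and at 2-fold 0 (0.661%). The members called by limma, 0, became 5 with normexp background correction, 1 with median centring and 4 with an intensity trend, where limma called 4.22%, 2.37% and 2.62% of all genes; the cause was not tested. The shared difference of Ikzf3 reversed to 0.0092 with normexp, 0.0071 with the percentile of detected spots and 0.043 with the authors' value table, and that of Tcf3 to -0.023 with the mean of all probes. Control sexes gave 0 members past 1.5-fold under all alternatives. Median centring shifted the female median of all genes by -0.11. Dim probes (Pax5, Ikzf3) and the number of arrays limit precision. The sex term pairs control and CB-NP within a sex, and without it limma also called 0 members. The labels give no replicate numbers for any further block.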

Other observations

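Ebf1 was the only one of the 10 whose CB-NP pools differed by more than 0.3 between the sexes (-0.55, female minus male), while its control pools differed by 0.10. Cr2, the complement receptor of B cells, differed by -1.08 (log2, female minus male) between the control pools and by 0.59 and 0.68 between CB-NP and control. Cd22, a B cell lectin, differed by 0.02 and -0.22, unlike the medians of 0.64 and 0.67 of its mature B cell list. The J chain gene Jchain differed by -0.60 and -0.53, beside medians of 0.10 and -0.08 of its plasma cell list. These genes were chosen after their values were seen.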
